A study of Homo sapiens with 4 samples.

Results

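YAP1, WWTR1 (which encodes TAZ), TEAD1 and TEAD4, together with 6 genes that the complex of these proteins is known to transcribe, were followed in U87MG cells treated with chaetocin. The 10 genes were taken by name from a list and matched to the 57905 Ensembl identifiers of the count tables. No measured value was used to choose them, although earlier results of the same data were known. U87MG is an established human glioblastoma line, labelled wild type. Chaetocin is a fungal metabolite that the study describes as an unspecific inhibitor of histone methyltransferases, SUV39H1 among them. The study adds that chaetocin inhibits thioredoxin reductase (TXNRD1), and it reported the H3K9 trimethylation mark as unchanged at 50 nM for 24 h. RNA was sequenced from 2 libraries of untreated cells (control) and 2 libraries of cells kept in 50 nM chaetocin for 24 h. Chaetocin was given in DMSO while the control cells were left untreated, so the compound and its solvent cannot be told apart. Nothing in the labels says that the 2 libraries of a group came from separate cultures. The p-values rest on the spread between these libraries, which may be technical. For each gene, the fit draws this spread toward that of the other tested genes.

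YAP and TAZ are transcriptional coactivators without a DNA-binding domain of their own. In the nucleus they bind TEAD factors, which recognize the sequence GGAATG and switch on genes of growth, adhesion and matrix. The Hippo kinase cascade opposes them: MST kinases activate LATS kinases, and LATS kinases phosphorylate YAP and TAZ, which are then held in the cytoplasm or degraded. The pathway is known to respond to cell density, cell shape and matrix stiffness, and in glioma the coactivators are known for their link to the mesenchymal state. Because YAP and TAZ are controlled mostly at the protein level, the mRNA of a target gene is a commonly used readout of the complex. The protein level, phosphorylation and location of YAP and TAZ were not measured by these libraries.

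None of the 10 genes passed an adjusted p of 0.05 in edgeR's quasi-likelihood test, where 1.85% of the 16416 tested genes did, 1.11% higher and 0.743% lower. At an unadjusted p under 0.05 there were 5 of the 10, 4 lower and 1 higher with chaetocin, against 9.43% of all tested genes lower and 10.9% higher. DESeq2's Wald test called 1 of the 10 as lower, *CCN2*, where it called 2.81% of all tested genes as lower. The log2 fold change was below 0 for 9 of the 10, against 49.1% of all tested genes. In 8 of the 10 both chaetocin libraries lay below both control libraries, an arrangement found in 26.0% of all tested genes. The 8 genes were *YAP1*, *WWTR1*, *TEAD1*, *TEAD4*, *CCN2*, *AMOTL2*, *LATS2* and *AJUBA*. In *ANKRD1* both chaetocin libraries lay above both control libraries, which held for 26.8% of all tested genes, and in *CCN1* the groups overlapped. All 10 genes passed the filter on low counts. Members of a common pathway are not independent of each other, and no test was made over the 10 genes together.

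**Figure D1:**
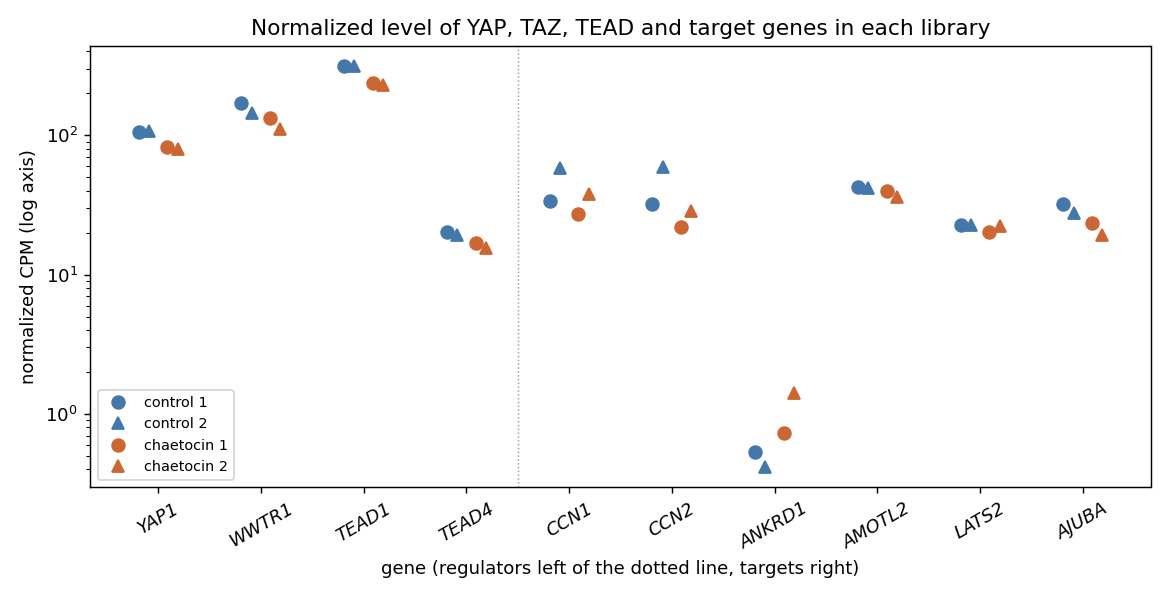
Level of each gene in each of the 4 libraries, in CPM (counts scaled to the size of the library) on a log axis, with control libraries in blue, chaetocin libraries in orange, replicate 1 as circles and replicate 2 as triangles. For *TEAD1* the control libraries are at 314 and 313 CPM and the chaetocin libraries at 236 and 231 CPM, whereas for *CCN1* the symbols of both groups interleave.

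The depth of the libraries ranged from 21241984 to 32590479 counts, and a level of 3 counts corresponded to 0.0844 to 0.138 CPM, where CPM stands for counts scaled to the size of the library after TMM normalization between libraries. This floor covers counting error only, since reads from PCR without molecular identifiers are not independent molecules. Replicates of both groups differed by more than sampling noise, the median chi-square over genes being 2.55 between the control libraries and 5.89 between the chaetocin libraries, against 0.455 for noise alone. Of the markers set for glioma and astroglial cells, *VIM* and *CD44* were abundant, *GFAP* had at most 25 reads in a library, and *S100B* and *SOX2* had 0 reads in both control libraries and 2 to 5 reads in the chaetocin libraries. The summed level of 4 leukocyte markers (*PTPRC*, *CD14*, *CD3E* and *LYZ*) was 0.287 to 0.418 CPM in control and 1.15 to 2.11 CPM with chaetocin. Only 2 of them were tested, and 1 (*PTPRC*) was called as higher, against 1.11% of all tested genes. The 2 others (*CD3E* and *LYZ*) had 0 reads in both control libraries, and *CD3E* had none in any library. Endothelial markers summed to 0.86 to 1.29 CPM in control and 2.11 to 3.15 CPM with chaetocin, and epithelial markers to 0.82 to 0.835 CPM and 1.24 to 1.97 CPM, with *KRT5* and *KRT14* at 0 reads throughout. The part of these low levels in the values below was not tested.

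*YAP1* (ENSG00000137693, chromosome 11) encodes YAP. Its level was 105 and 107 CPM in the control libraries and 82.8 and 80.2 CPM in the chaetocin libraries. Replicates lay close together in both groups, and the groups did not overlap. The mean was 106 ± 1.20 CPM (SD, n = 2) in control and 81.5 ± 1.82 CPM (SD, n = 2) with chaetocin, which gave a log2 fold change of -0.38 with a 95% interval from -0.69 to -0.07 and an adjusted p of 0.174. *WWTR1* (ENSG00000018408, chromosome 3) encodes TAZ, the paralogue of YAP. It had 170 and 144 CPM in control and 132 and 111 CPM with chaetocin, and in each group replicate 1 was the higher library. The difference between the 2 control libraries was 0.25 on the log2 scale, against -0.37 for chaetocin minus control (interval -0.74 to 0.01, adjusted p = 0.255). Leaving out a library moved the log2 fold change of *WWTR1* between -0.48 and -0.24. It was -0.48 (adjusted p = 0.0414) without chaetocin replicate 1, a fit that called 9.36% of all tested genes as lower, and -0.24 (adjusted p = 0.876) without control replicate 1. In bulk RNA, fewer cells that express a gene and less RNA per cell cannot be told apart.

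*TEAD1* (ENSG00000187079, chromosome 11), which encodes a DNA-binding partner of YAP and TAZ, had 314 and 313 CPM in control and 236 and 231 CPM with chaetocin. The control libraries of this gene lay closest together by ratio among the 10 genes (0.995), and the groups did not overlap. The log2 fold change was -0.43 (interval -0.77 to -0.08), and the adjusted p of 0.163 did not pass the threshold. *TEAD4* (ENSG00000197905, chromosome 12), the other TEAD gene on the list, had 20.1 and 19.2 CPM in control and 16.9 and 15.6 CPM with chaetocin. Its log2 fold change of -0.28 had an interval from -0.67 to 0.11 and an adjusted p of 0.403. All 4 regulator genes were thus lower in both chaetocin libraries, as were 26.0% of all tested genes, with log2 fold changes between -0.43 and -0.28 that did not pass the adjusted threshold.

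Levels of different genes were compared per kilobase of the union of their exons. The union holds the exons of all annotated transcripts, whether or not they were expressed here, so the order of genes is approximate. *TEAD1* was highest in control cells with 30.5 ± 0.105 CPM per kilobase (SD, n = 2), followed by *CCN2* with 19.5 ± 8.33, *WWTR1* with 18.7 ± 2.25, *CCN1* with 18.7 ± 7.09 and *YAP1* with 16.8 ± 0.191. These last 4 genes did not differ beyond their spread. *TEAD4* (8.66), *AMOTL2* (7.03), *AJUBA* (4.99) and *LATS2* (4.07) followed, and *ANKRD1* was lowest at 0.24 CPM per kilobase. Within a library, *YAP1* stood to *WWTR1* per kilobase as 0.825 and 0.994 in control and as 0.836 and 0.965 with chaetocin, so the replicates of a group differed in this ratio by more than the groups did. *TEAD1* exceeded *TEAD4* per kilobase by a ratio of 3.45 and 3.60 in control and of 3.08 and 3.27 with chaetocin. This ratio was lower in both treated libraries, a difference that was not tested or set against other pairs of genes.

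TEAD factors bind their motif in promoters and in distant enhancers, of which the promoters were looked at here. RefSeq windows from 250 bases before to 50 bases after the start site were read for 7 of the 10 genes, *TEAD1*, *TEAD4* and *CCN1* being the others. The windows are on GRCh38.p14, whereas the reads were aligned to GRCh37, so the coordinates are those of the windows alone. They were searched for the TEAD motif GGAATG and its reverse complement CATTCC, the AP-1 motif TGANTCA and the CArG box of SRF on both strands, and no match overlapped another. The window of *CCN2* held GGAATG at 169, 104 and 95 bases before the start site, and that of *ANKRD1* held it at 220 and 128 bases before. At least 3 matches were found in 0.128% of 35116 windows, at least 2 in 1.37% and at least 1 in 14.0%. The 250 bases before the start site of *CCN2* and *ANKRD1* (both minus strand) are shown because they carry the most TEAD motifs on the list while the genes differed in the sign of their fold change. For *YAP1* (plus strand) and *AMOTL2* (downstream start site, minus strand), 30 bases are shown around a single motif, at 162 and 69 bases before the start site, the latter as the reverse complement. Capitals mark the motif.
*CCN2*, chr6:131951373-131951622: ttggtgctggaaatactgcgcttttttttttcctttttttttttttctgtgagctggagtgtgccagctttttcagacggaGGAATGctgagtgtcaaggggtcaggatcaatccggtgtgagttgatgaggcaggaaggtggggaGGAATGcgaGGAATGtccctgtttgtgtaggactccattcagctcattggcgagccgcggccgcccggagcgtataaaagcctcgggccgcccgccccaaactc
*ANKRD1*, chr10:90921088-90921337: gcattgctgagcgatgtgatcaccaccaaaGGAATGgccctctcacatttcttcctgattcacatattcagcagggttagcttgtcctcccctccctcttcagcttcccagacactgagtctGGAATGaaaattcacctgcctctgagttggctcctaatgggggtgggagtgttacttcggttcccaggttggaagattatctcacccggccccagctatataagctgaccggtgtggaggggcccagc
*YAP1*, chr11:102110273-102110302: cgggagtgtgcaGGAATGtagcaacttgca
*AMOTL2*, chr3:134374499-134374528: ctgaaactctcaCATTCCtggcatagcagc
A motif was also found at 59 bases before the downstream start site of *AJUBA* and at 10 bases after the start site of *LATS2*, and neither window of *WWTR1* held one. The window of *ANKRD1* also held the AP-1 motif at 195 bases before the start, a motif present in 7.71% of windows, and no CArG box (1.29% of windows) was found for any of the 7 genes. A match is a description of the letters and does not show that a factor binds there.

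*CCN2* (ENSG00000118523, chromosome 6, older name CTGF) and *CCN1* (ENSG00000142871, chromosome 1, older name CYR61) encode secreted matricellular proteins of the same family and are widely used to read out YAP and TAZ. *CCN2* had the smallest p of the 10 genes. Its level was 31.9 and 59.5 CPM in control and 21.9 and 28.6 CPM with chaetocin. Both treated libraries were below both control libraries, but the control libraries differed by a ratio of 1.86. The mean was 45.7 ± 19.5 CPM (SD, n = 2) in control and 25.3 ± 4.77 CPM (SD, n = 2) with chaetocin. The log2 fold change was -0.85 (SE 0.28, interval -1.51 to -0.20, adjusted p = 0.148). Without control replicate 2 the log2 fold change was -0.34 (adjusted p = 0.772), and without control replicate 1 it was -1.23 (adjusted p = 0.0322), where 0.207% of all tested genes were called as lower. DESeq2 gave an adjusted p of 0.0473 for *CCN2*, and edgeR without a filter on low counts gave 0.00021, where 2.39% of the genes tested were called as lower. The size of the *CCN2* difference rested on which control library was used.

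*CCN1* had 33.7 and 58.3 CPM in control and 27.0 and 37.8 CPM with chaetocin. Chaetocin replicate 2 was above control replicate 1, so the groups overlapped. The log2 fold change was -0.50 with an interval from -1.12 to 0.12 and an adjusted p of 0.338, and it was -0.05 without control replicate 2 and -0.85 without control replicate 1. In both genes replicate 2 was the higher library of each group, by ratios of 1.73 and 1.40 for *CCN1* and of 1.86 and 1.31 for *CCN2*. Within a library the ratio of *CCN2* to *CCN1* per kilobase was 0.995 and 1.07 in control and 0.85 and 0.795 with chaetocin. In this measure the groups did not overlap, and replicates lay closer than in either gene alone. Both chaetocin libraries lay above both control libraries in 26.8% of all tested genes and below in 26.0%. No such share was taken for pairs of genes, and the difference in ratio was not tested.

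**Figure D2:**
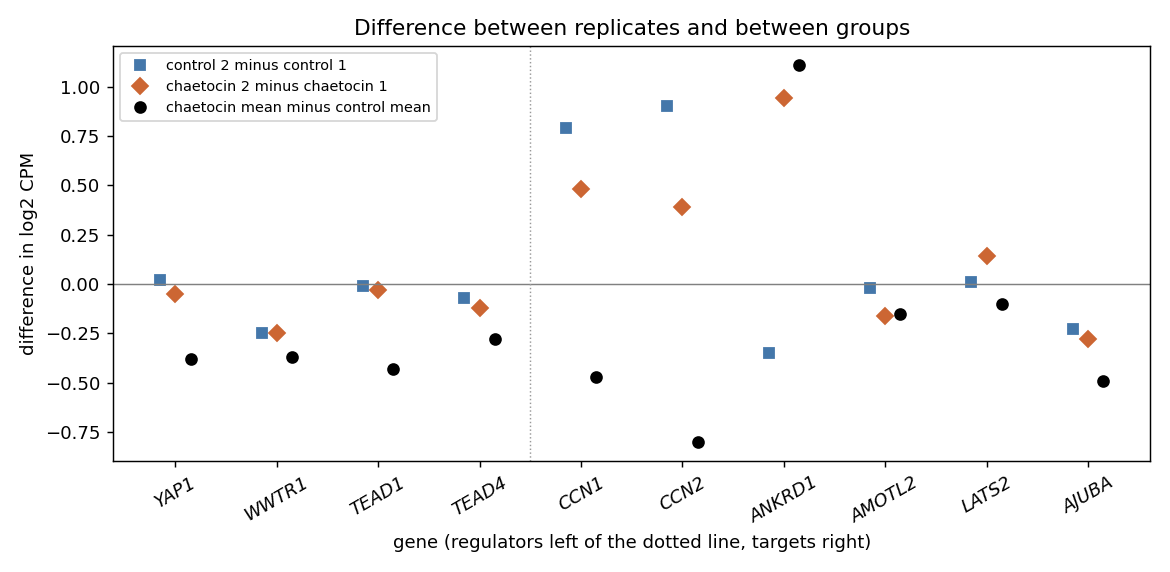
Difference in log2 CPM between replicates 2 and 1 of the control group (blue squares), between replicates 2 and 1 of the chaetocin group (orange diamonds), and between the chaetocin and control means of log2 CPM (black circles), for each gene. For *CCN1* the control replicates differ by 0.79 and the groups by -0.47, whereas for *TEAD1* the control replicates differ by -0.01 and the groups by -0.43.

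*ANKRD1* (ENSG00000148677, chromosome 10) encodes an ankyrin repeat protein of the nucleus and sarcomere that is strongly expressed in stressed muscle. It had 13 and 12 reads in the control libraries and 16 and 50 reads in the chaetocin libraries, or 0.533, 0.418, 0.735 and 1.41 CPM. The groups did not overlap, and chaetocin replicate 2 stood apart from the other 3 libraries. This gave a log2 fold change of 1.20 with an interval from 0.00 to 2.40 and an adjusted p of 0.245. Without chaetocin replicate 2 it was 0.63, and without chaetocin replicate 1 it was 1.58.

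The remaining 3 targets encode proteins that act back on the pathway. AJUBA is a LIM protein that restrains LATS kinases. *AJUBA* (ENSG00000129474, chromosome 14) had 32.2 and 27.5 CPM in control and 23.3 and 19.1 CPM with chaetocin, with no overlap between groups. The mean was 29.8 ± 3.33 CPM (SD, n = 2) in control and 21.2 ± 2.94 CPM (SD, n = 2) with chaetocin. The log2 fold change was -0.49 (interval -0.90 to -0.09, adjusted p = 0.174). Without chaetocin replicate 1 it was -0.63 (adjusted p = 0.0244), in the fit that called 9.36% of all tested genes as lower. Leaving out each of the other libraries gave -0.60 to -0.36, with adjusted p from 0.191 to 0.767. AMOTL2, an angiomotin family protein that binds YAP and keeps it in the cytoplasm, showed a small difference at the mRNA level. *AMOTL2* (ENSG00000114019, chromosome 3) had 42.3 and 41.8 CPM in control and 40.0 and 35.8 CPM with chaetocin, a log2 fold change of -0.15 with an interval from -0.49 to 0.19 (adjusted p = 0.617). LATS2 is a member of the LATS kinases, which phosphorylate YAP and TAZ. *LATS2* (ENSG00000150457, chromosome 13) had 22.6 and 22.8 CPM in control and 20.1 and 22.2 CPM with chaetocin, a log2 fold change of -0.10 with an interval from -0.47 to 0.27 (adjusted p = 0.779). Chaetocin replicate 2 of *LATS2* was nearly level with the controls.

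**Figure D3:**
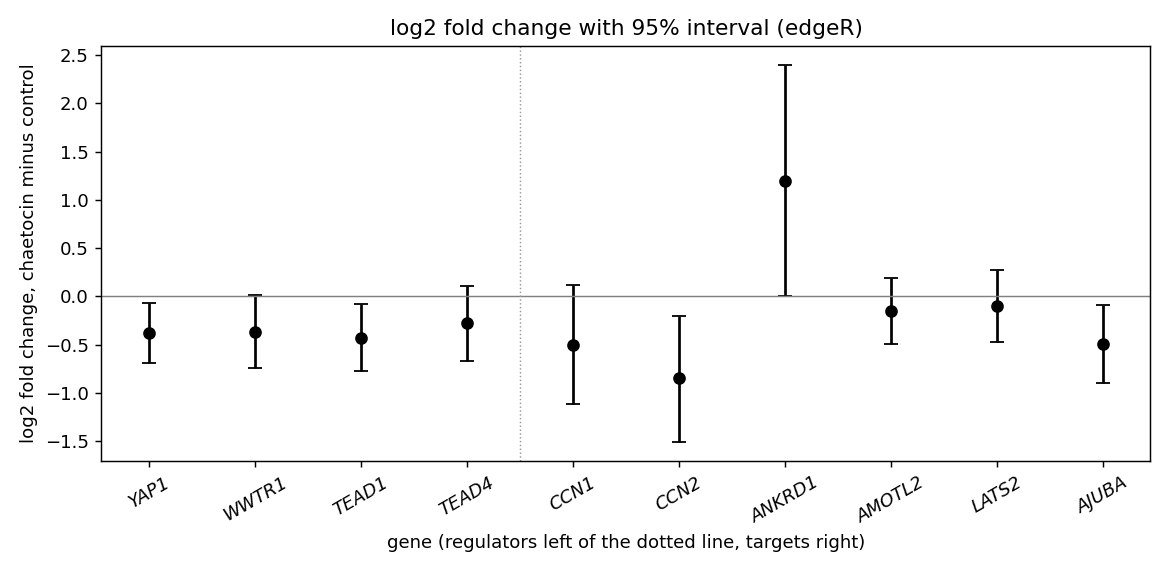
log2 fold change of chaetocin against control for each gene with its 95% interval from edgeR's quasi-likelihood fit, with regulators left and targets right of the dotted line. The 4 regulators sit between -0.43 and -0.28, whereas the 6 targets range from -0.85 for *CCN2* to 1.20 for *ANKRD1*.

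Regulators and targets were then set side by side. The median log2 fold change was -0.37 over the 4 regulators and -0.32 over the 6 targets, against 0.01 over all tested genes. Against the control mean, the regulator median was -0.30 in chaetocin replicate 1 and -0.42 in chaetocin replicate 2, and the target median was -0.26 and -0.23. Without control replicate 2 the median log2 fold changes were -0.40 for regulators and -0.13 for targets. The difference between the classes was not tested. The classes differed in range, from -0.43 to -0.28 for regulators and from -0.85 to 1.20 for targets, and the widest replicate differences were also those of 3 targets, *CCN1*, *CCN2* and *ANKRD1*.

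The other genes of the pathway were taken from lists written from general knowledge, with earlier results of the same data known. Genes of a list are not independent of each other, and no test was made over a list. The list of 17 further YAP and TAZ targets had 16 tested genes, and all 16 had a log2 fold change below 0 (49.1% of all tested genes), with a median of -0.57, and in 12 of them both chaetocin libraries lay below both control libraries (26.0% of all tested genes). Of the 16, 1 was called as lower at an adjusted p under 0.05, against 0.743% of all tested genes, and 0 were called as higher. At an unadjusted p under 0.05 there were 9 lower and 0 higher, against 9.43% and 10.9% of all tested genes. The called gene was *CRIM1*, which encodes a transmembrane protein that binds bone morphogenetic proteins. It fell from 268 and 248 CPM to 111 and 87.3 CPM, a log2 fold change of -1.38 (SE 0.17, adjusted p = 0.0262). The next smallest p-values of this list, named after their values were seen, belonged to *MYOF*, a membrane repair gene, and *AXL*, a receptor tyrosine kinase gene. *MYOF* had 687 and 729 CPM in control and 404 and 430 CPM with chaetocin (log2 fold change -0.76, adjusted p = 0.0584). *AXL* had 653 and 603 CPM in control and 389 and 275 CPM with chaetocin (log2 fold change -0.92, adjusted p = 0.0626).

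**Figure D4:**
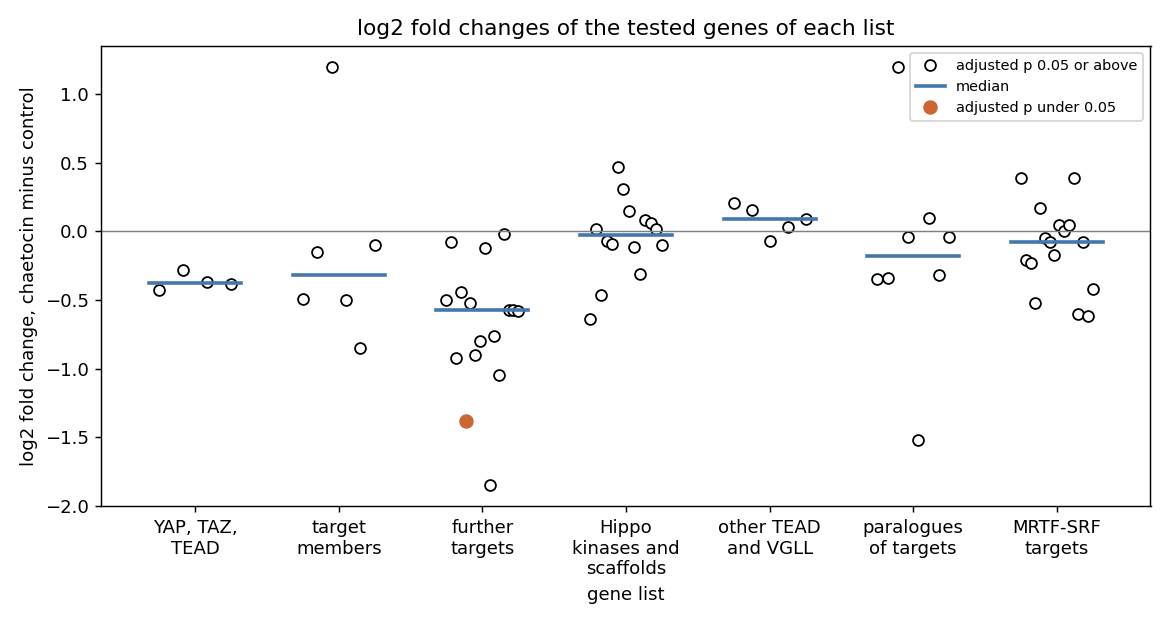
log2 fold changes of chaetocin against control for the tested genes of each list, 1 circle a gene, with the list median as a blue bar and genes at an adjusted p under 0.05 in orange. The 16 further targets all lie below 0 with a median of -0.57, and the Hippo kinases and scaffolds are spread around 0 with a median of -0.03.

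Of the 14 Hippo kinases and scaffolds, all were tested, 7 lay below 0 and 7 above, the median was -0.03, and 0 were called in either direction. At an unadjusted p under 0.05 there were 1 higher and 1 lower of the 14, against 10.9% and 9.43% of all tested genes, so neither count stands above the background. Both are named here after their values were seen. *NF2*, which encodes the scaffold merlin, had 47.7 and 57.8 CPM in control and 64.5 and 81.2 CPM with chaetocin (log2 fold change 0.47, adjusted p = 0.190). *FRMD6*, which encodes another scaffold of the cascade, had 60.0 and 53.3 CPM in control and 40.5 and 32.2 CPM with chaetocin (log2 fold change -0.64, adjusted p = 0.0895). The list of *TEAD2*, *TEAD3* and the VGLL cofactors had 5 tested of 6 genes, with log2 fold changes from -0.07 to 0.21 and 0 calls (1.85% of all tested genes). Named after their values were seen, *TEAD2* had 1.23 to 1.61 CPM and *TEAD3* had 4.32 to 6.36 CPM over the 4 libraries.

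Among paralogues of the target genes, 8 of 10 were tested and 0 were called, against 1.85% of all tested genes. *CCN3*, of the same family as *CCN1* and *CCN2*, had 33.0 and 65.9 CPM in control and 30.7 and 64.9 CPM with chaetocin, so that replicate 2 was again the higher library in each group. *CCN4*, another family member, had 15.2 and 8.63 CPM in control and 5.97 and 2.48 CPM with chaetocin (log2 fold change -1.52, adjusted p = 0.106), and there replicate 1 was the higher library in each group. *ANKRD23*, a paralogue of *ANKRD1*, had 0.574 and 0.313 CPM in control and 1.15 and 0.901 CPM with chaetocin (log2 fold change 1.20, adjusted p = 0.241), from 9 to 32 reads a library. These 3 paralogues were named after their values were seen. At an unadjusted p under 0.05 there were 1 higher (*ANKRD23*, 10.9% of all tested genes) and 1 lower (*CCN4*, 9.43%). MRTF and SRF are a further pair of factors that read the state of actin and share targets with YAP. All 16 genes of their list were tested, with 10 below 0 (49.1% of all tested genes), a median of -0.08 and 0 calls (1.85% of all tested genes). At an unadjusted p under 0.05 there were 3 lower and 0 higher, against 9.43% and 10.9% of all tested genes.

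The 3 tested genes with the profile nearest to that of *CCN2* over the 4 libraries, by Euclidean distance of centred log2(CPM + 0.5), were *TACR2* (distance 0.166), *AK5* (0.172) and *VIT* (0.204). Like *CCN2*, each was higher in replicate 2 than in replicate 1 of its group and lower with chaetocin, and none passed the adjusted threshold. *AK5* had 3.77 and 6.26 CPM in control and 2.21 and 3.24 CPM with chaetocin, while *TACR2* and *VIT* had at most 62 reads in a library. With 4 libraries such a likeness is a description. In GENCODE v29, exons of *WWTR1*, *YAP1* and *CCN2* overlap those of an antisense gene, and *AMOTL2* and *AJUBA* overlap those of a gene on the same strand. These 5 partners had at most 29 reads in a library, the highest being *WWTR1-AS1*, and reads of overlapping genes could not be assigned further because the strand setting of the counting is not given in the sources used here.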

How the data were processed

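The authors deposited raw read counts per Ensembl gene, 1 table per library, without normalization. The submitters' processing notes name cutadapt, TopHat2 and SAMtools and the build GRCh37, with no versions. The counting tool and strand setting are not given in the sources used here. Seeding density differs between the labels and the study's methods.

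All 57905 genes were read, and 51996 identifiers matched a symbol. Low counts were removed with filterByExpr (minimum count 10), and 16416 genes were fitted with edgeR 4.0.16 in R 4.3.3 (TMM, robust quasi-likelihood test, group as the only term, Benjamini-Hochberg adjustment, threshold 0.05). The study's methods name DESeq2; version 1.42.0 served as an alternative. Intervals are at 95% confidence. Exon lengths were from GENCODE v29 on GRCh38.

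The members and lists were chosen with earlier results of these data known. Named genes were all members, called genes of each list, and the 3 profiles nearest to the member with the smallest p. Other genes of the pathway lists given with values are marked, and cell type markers were named after their values were seen. Alternatives were other normalizations and filters, thinning, a non-robust fit, a replicate block and leaving out each library. *PECAM1* was not used here. One gene of the leukocyte marker list, beside the 4 that were summed, is not reported here.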

Additional observations from a re-analysis of the deposited data

How the results depend on the processing

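Precision was limited by the 2 libraries per group and, for *ANKRD1*, by 12 to 50 reads per library. Thinning all libraries to the smallest gave 173 genes higher and 112 lower, against 182 and 122. Over all alternatives, which reuse the same libraries, the direction of the 10 members did not reverse. Some values were close to 0. The log2 fold change of *LATS2* was -0.02 with upper-quartile normalization, and that of *CCN1* was -0.05 without control replicate 2. With all libraries kept, 0 members were called as higher. The number of members called as lower was 0 with RLE or upper-quartile normalization, at least 10 counts in every sample, thinning and the non-robust fit, where 0.536% to 0.737% of all tested genes were called as lower. It was 1 without a filter on low counts and 1 with DESeq2, *CCN2* in both cases, where 2.39% and 2.81% of the genes tested were called as lower. Leaving out a library gave 0 to 2 members: *CCN2* without control replicate 1, where 0.207% of all tested genes were called as lower, and *WWTR1* and *AJUBA* without chaetocin replicate 1, where 9.36% were. The cause was not tested.

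Among all genes, no filter gave 787 higher and 759 lower, at least 10 counts in every sample 114 and 80, and DESeq2 447 and 461. Leaving out a library gave 103 to 1249 higher and 34 to 1536 lower. In each of these fits 1 group has a single library, which is assumed to vary like the other group. The lowest and highest of the lower calls were without control replicate 1 and without chaetocin replicate 1. Of the 59 tested genes of the pathway lists, 1 was lower (0.743% of all tested genes) and 0 higher. No filter gave 11 lower (2.39% of all genes), DESeq2 8 (2.81%), and leaving out a library 1 to 19 lower (19 without chaetocin replicate 1, where 9.36% of all genes were) and 0 to 1 higher. Upper-quartile normalization gave medians of -0.30 for regulators and -0.25 for targets, with a median of 0.08 over all genes. Leaving out a library gave -0.41 to -0.31 for regulators and -0.27 to -0.13 for targets, -0.13 being without control replicate 2.

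Both groups share the replicate numbers 1 and 2, but no label ties a number to a batch or day. The log2 differences between replicates correlated across genes between groups with r = 0.101, and genes are not independent replicates. With the replicate block, 1036 genes were higher and 1053 lower, 2 members were lower (*CCN2* and *AJUBA*, against 6.41% of all tested genes), and of the pathway lists 1 gene was higher and 16 were lower. The block left the medians of regulators and targets at -0.37 and -0.31.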

Other observations

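Of the 7 genes set as glioma and astroglial markers, 5 were tested, and in all 5 both chaetocin libraries lay below both control libraries, an arrangement found in 26.0% of all tested genes. The other 2, *S100B* and *SOX2*, had at most 5 reads in a library, 0 of them in control, and were not tested. None of the 5 passed the adjusted threshold. A pair of them are given here, named after their values were seen. *CD44*, the hyaluronan receptor and a marker of the mesenchymal state of glioma, had 2650 and 2480 CPM in control and 1430 and 797 CPM with chaetocin (log2 fold change -1.20, adjusted p = 0.0699). *VIM*, which encodes the intermediate filament vimentin, had 2800 and 2270 CPM in control and 1760 and 1150 CPM with chaetocin (log2 fold change -0.80). Chaetocin replicate 2 was the lower treated library in both genes.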
